A study of Schizosaccharomyces pombe with 26 samples.

Results

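Histone H3 chromatin immunoprecipitation (ChIP) over open reading frames (ORFs) was compared between a fission yeast strain lacking hrp1 and wildtype. The comparison used 5 of the 26 samples of the series, chosen by their labels as H3 ChIP on the ORF array: 3 delta-hrp1 samples and 2 wildtype samples. A further 2 H3 ORF samples came from delta-med15, which lacks the Mediator subunit gene med15 and carries hrp1. The Schizosaccharomyces pombe cells grew in the rich medium YES, and the delta-hrp1 and delta-med15 strains share the H3 antibody, the array and the protocol with wildtype. The other samples of the series are Med15-myc ChIP, H3 ChIP on intergenic arrays and RNA. The submitters call the replicates biological but do not say whether cultures were separate, so a p-value speaks only for the spread seen among these samples, which may be technical.

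Hrp1 is an ATPase of the CHD family of chromatin remodellers, which use ATP hydrolysis to move, space or disassemble nucleosomes. H3 is a core histone present in every nucleosome, so the DNA recovered with an antibody against it depends on nucleosome density, on fragment recovery and on the amount of DNA put in. In fission yeast Hrp1 has been tied to nucleosome removal at promoters and gene ends and to loading of the centromeric histone Cnp1.

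The array carries each ORF as a spotted DNA, usually on 2 adjacent spots, laid down in 48 print blocks of 12 block rows and 4 block columns. It gave 4777 ORF features, 4553 of them tied to 1 gene. A value below is the deposited log2 ChIP signal, centred on the median of its array. It was not divided by input, because the wildtype values have no input channel among the files used. A fold change is therefore a difference in H3 signal on the log2 scale, delta-hrp1 minus wildtype, and not a difference in occupancy. All differences, with standard errors after ±, come from limma with Benjamini-Hochberg adjustment over all tested features, with strain and the dye of the ChIP DNA as terms. The 2 wildtype samples and 2 of the 3 delta-hrp1 samples had the ChIP DNA in Cy3, and the third delta-hrp1 sample had it in Cy5.

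The hrp1 feature checked the labels. Its H3 signal was −5.24, −5.99 and −4.53 in delta-hrp1, against 1.49 and 1.41 in wildtype, a difference of −6.98 ± 0.41 (adjusted p = 0.000272). The delta-hrp1 values lay near or below array background and the groups did not overlap. In the delta-med15 samples hrp1 read 1.86 and 1.41. Input DNA at the hrp1 spots of the 3 delta-hrp1 arrays scanned at 5510, 2408.5 and 21.75 units, each below the local background of its spots (6894.75, 2457.5 and 44.5). The low H3 signal at hrp1 was thus measured where input DNA was not above background either.

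Hrp3 is the other CHD remodeller of fission yeast and the paralog of Hrp1, and its gene is present in delta-hrp1. The coding sequences are 4122 and 4167 bases long and share 66.4% of 3963 aligned bases, with a longest identical run of 18 bases. The stretch below surrounds the motif that gives DEAH-type ATPases their name, in RefSeq assembly ASM294v3 on the plus strand, at chrI:2196562-2196621 for hrp1 and chrI:5379981-5380040 for hrp3. Capitals mark the 13 of 60 bases that differ.
hrp1: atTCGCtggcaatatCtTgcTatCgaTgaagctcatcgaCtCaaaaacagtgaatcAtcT
hrp3: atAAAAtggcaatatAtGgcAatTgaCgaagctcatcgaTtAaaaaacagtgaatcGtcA
The hrp1 feature thus read near background in delta-hrp1 with hrp3 DNA present. The hrp3 feature itself read 1.29, 1.03 and 2.05 in delta-hrp1, against 0.54 and 0.41 in wildtype. Each delta-hrp1 value was above both wildtype values, but the difference of 0.86 ± 0.42 did not pass (adjusted p = 0.153).

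Of 4765 tested features, 1302 (27.3%) passed an adjusted p of 0.05: 648 (13.6%) higher and 654 (13.7%) lower in delta-hrp1. The remaining 12 features could not be tested. The rises had a median of 1.80 (interquartile range 1.50 to 2.23) and the falls a median of −2.19 (−2.75 to −1.74). The median size over all tested features was 0.87, beside a median standard error of 0.43. Groups did not overlap for 647 of the 648 rises and 648 of the 654 falls, and neither did they for 1493 features above and 1403 below wildtype among all 4765. These counts rest on both wildtype samples. Without wildtype replicate 1 there were 46 calls, 36 higher and 10 lower. Without wildtype replicate 2 only arg5 and amt1 (higher) and hrp1 (lower) were called. The 1295 calls that could be fitted kept their direction in both cases. Since the strains did not overlap for nearly all calls, that was close to fixed in advance and adds no support.

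**Figure D1:**
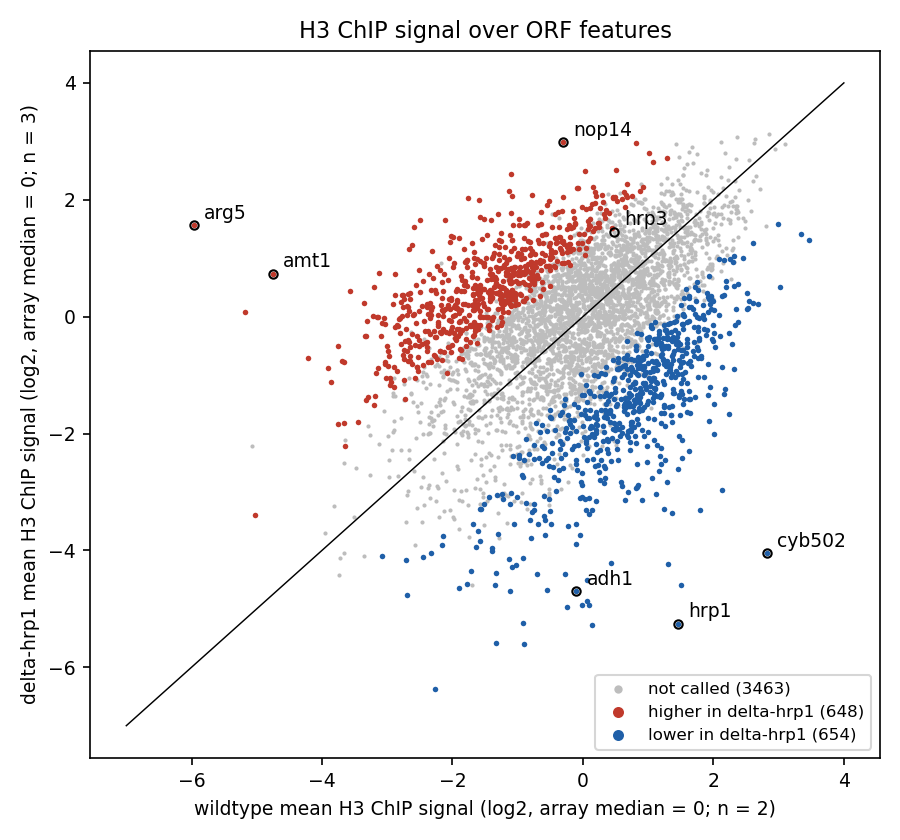
Mean H3 signal of each ORF feature, delta-hrp1 on the vertical axis (n = 3) and wildtype on the horizontal axis (n = 2), in log2 with the array median at 0. The 648 features called higher (red) lie above the line of equal signal and the 654 called lower (blue) below it, and labelled points include hrp1, which is low in delta-hrp1 alone.

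The profiles of the 2 strains correlated less than replicates did, and the difference followed the position of the spot on the array. Over all features the rank correlation was 0.72 to 0.82 among delta-hrp1 samples and 0.92 between the wildtype samples, but 0.30 to 0.38 between strains. With each array centred within its print blocks, the values were 0.73 to 0.79, 0.92 and 0.47 to 0.54. The delta-med15 samples correlated with delta-hrp1 at 0.55 to 0.69 and with wildtype at 0.45 to 0.64. These coefficients are descriptions across 4777 features that share arrays and probes.

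**Figure D2:**
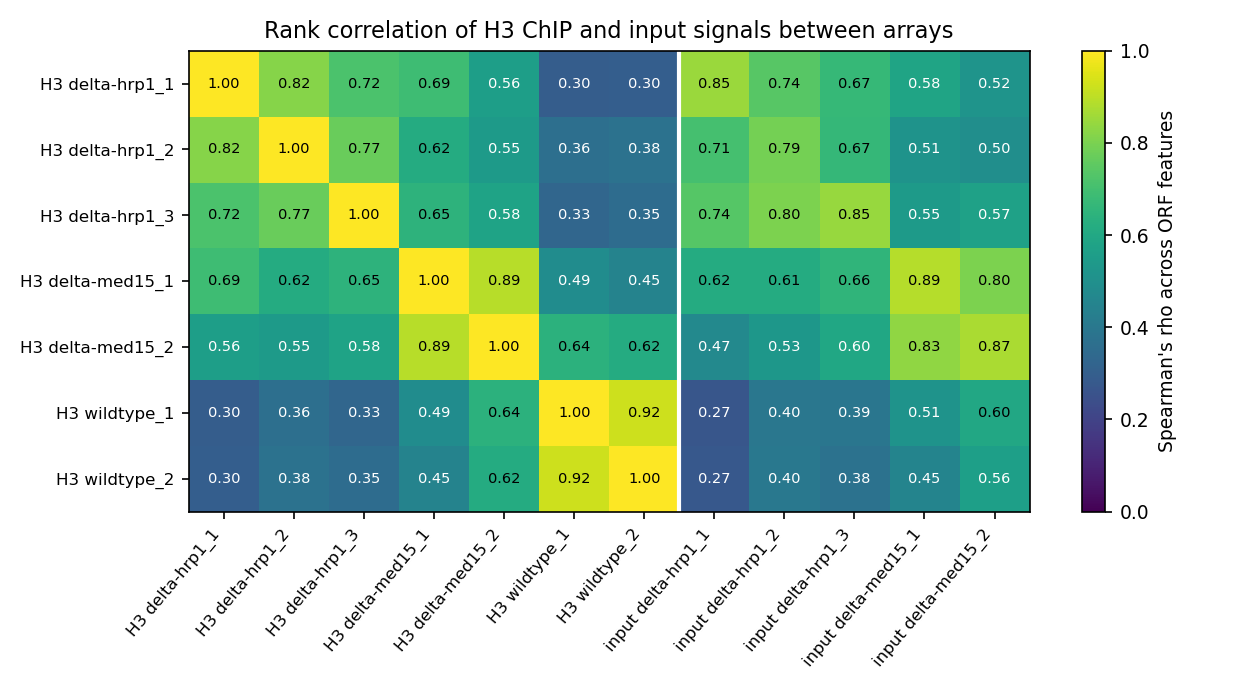
Spearman's rho across ORF features for each H3 ChIP sample (rows) with the 7 H3 ChIP samples and with the input of the 5 delta-hrp1 and delta-med15 arrays (columns, right of the white line), with the value in each cell. Pairs of delta-hrp1 with wildtype, at 0.30 to 0.38, have the lowest values between H3 samples.

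Print blocks accounted for 53.1% of the variance of the difference, for 31.2% of the variance of the delta-hrp1 mean, 41.9% for the wildtype mean and 12.1% for the delta-med15 mean. In block row 1 the median difference was −2.04, and 240 of 399 features (60.2%) were called lower and 0 higher. In block row 10 it was 0.55. Block row 4 held 110 higher calls among 404 features (27.2%), and the block in its column 3 held 69 higher calls and 0 lower. Wildtype signal was lowest in block column 3, with block medians of −2.09, −2.18 and −1.54 in block rows 4 to 6. Each gene has a fixed place on the array, so a shift shared by the genes of a block and one of their place on the array cannot be told apart.

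**Figure D3:**
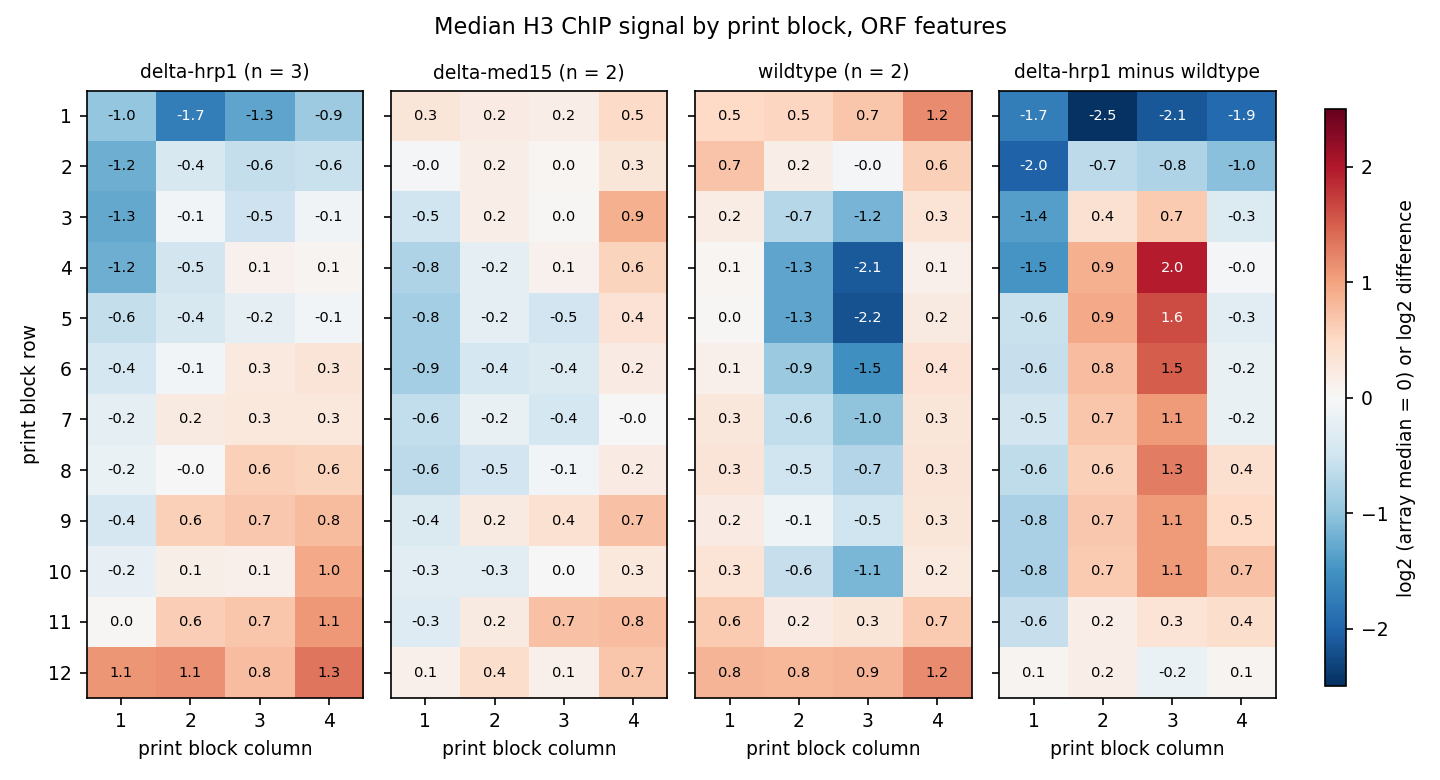
Median H3 signal of the features in each of the 48 print blocks, at their places on the array, for delta-hrp1, delta-med15 and wildtype, and the median of delta-hrp1 minus wildtype (log2). The difference is lowest in block row 1 and highest in block row 4, column 3.

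Because of this, each array was also centred within its print blocks, a setting added after the data had been seen. It left 702 calls (14.7%), 299 higher (6.27%) and 403 lower (8.46%), with a median size of difference of 0.54 over all features and a median standard error of 0.32. Of the 1302 calls above, 400 stood in the same direction after block centring, 179 higher and 221 lower, and 0 were called in the opposite direction. Of the other 902, 80 higher and 97 lower calls changed sign after it. Many features named below are given with both differences, and others only with sample signals or the difference before block centring. The phrase "called both ways" means called in the same direction before and after block centring. Block-centred calls also rest on both wildtype samples, with 13 left without wildtype replicate 1 and 12 without wildtype replicate 2. Without delta-hrp1 replicate 3, or either delta-med15 sample, 383 or 385 were left.

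The 12 largest rises with both strain means above −4.02, the near-background level, were named by a rule on size. That level came from deleted genes in the deletion strains. In the wildtype samples, E coli DNA spots read −3.20 to −2.37 and empty spots −5.04 and −4.49. Among the rises given below with sample values, mrz1 and SPBPB10D8.01 have wildtype values within or under that E coli range. The sizes of these rises are less certain. For the rises given without sample values, wildtype was not set against that range here, so the same limit may hold for them. All 12 lay in block column 3 and all 12 were called both ways. The gene mrz1, for a ubiquitin ligase, had H3 signal of 2.12, 1.17 and 1.69 in delta-hrp1, against −2.37 and −2.63 in wildtype, a difference of 4.06 ± 0.43 (adjusted p = 0.00508) that was 1.99 after block centring. The gene spi1, for the Ran GTPase of nuclear transport, had 2.34, 1.86 and 1.77 in delta-hrp1 and −1.65 and −1.53 in wildtype, and differed by 3.56, or 2.27 block-centred. Both genes read above zero in every delta-hrp1 sample and below it in every wildtype sample.

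The subtelomeric cysteine transporter gene SPBPB10D8.01 had 0.39, 0.31 and 0.61 in delta-hrp1, against −3.50 and −3.63 in wildtype, and kept 2.61 of its 3.90 after block centring. The polarity factor gene pob1 had 2.29, 1.78 and 2.01 in delta-hrp1, against −1.41 and −2.11 in wildtype (3.70, or 2.57 block-centred). The rest of the 12 were the cysteine desulfurase gene nfs1, the channel gene SPAC977.17, the importin gene kap104, the transcription factor gene tos4, the Golgi genes gmh3 and cog3, the proteasome receptor gene rpn1301 and SPBC365.16, which rose by 3.54 to 3.96 and by 1.56 to 1.99 after block centring. In delta-med15, mrz1 read 1.48 and 0.82 and spi1 1.92 and 1.33, nearer to delta-hrp1 than to wildtype.

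The 12 largest falls by the same rule, which uses strain means, lay mostly in block column 1, with 8 of 12 there. Of the 12, 11 were called both ways. The tryptophan synthesis gene trp4 had −4.33, −3.10 and −2.50 in delta-hrp1, against 1.69 and 1.89 in wildtype, a difference of −5.17 ± 0.63 (adjusted p = 0.00508) that was −3.17 block-centred. The topoisomerase gene top3 had −5.36, −2.30 and −1.43 in delta-hrp1, against 0.96 and 1.29 in wildtype (−4.70, or −3.98 block-centred). The first delta-hrp1 sample was the lowest for both. The ribosomal protein gene rpl6 had −3.99, −2.16 and −3.70 in delta-hrp1, against 1.04 and 1.44 in wildtype, and differed by −4.38, or −3.85 block-centred. The meiotic break nuclease gene rec12 had −5.45, −4.04 and −1.72 in delta-hrp1, against 0.02 and −0.11 in wildtype (−4.17, or −1.73 block-centred). Here too the groups did not overlap, but the delta-hrp1 samples spread over more than 3 log2 units. In the first delta-hrp1 sample top3, rec12 and bag101 (−5.42) read below the deleted hrp1 gene (−5.24), so their sizes are less certain.

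The others were the chaperone regulator gene bag101, ntu1, the cell wall gene ecm33, the vesicle tethering gene trs65, oga1, mug114, SPAC57A7.05 and the casein kinase gene cki1. Their differences ran from −5.17 to −4.19, and cki1 lost its call after block centring (−2.22 ± 0.84, adjusted p = 0.109).

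**Figure D4:**
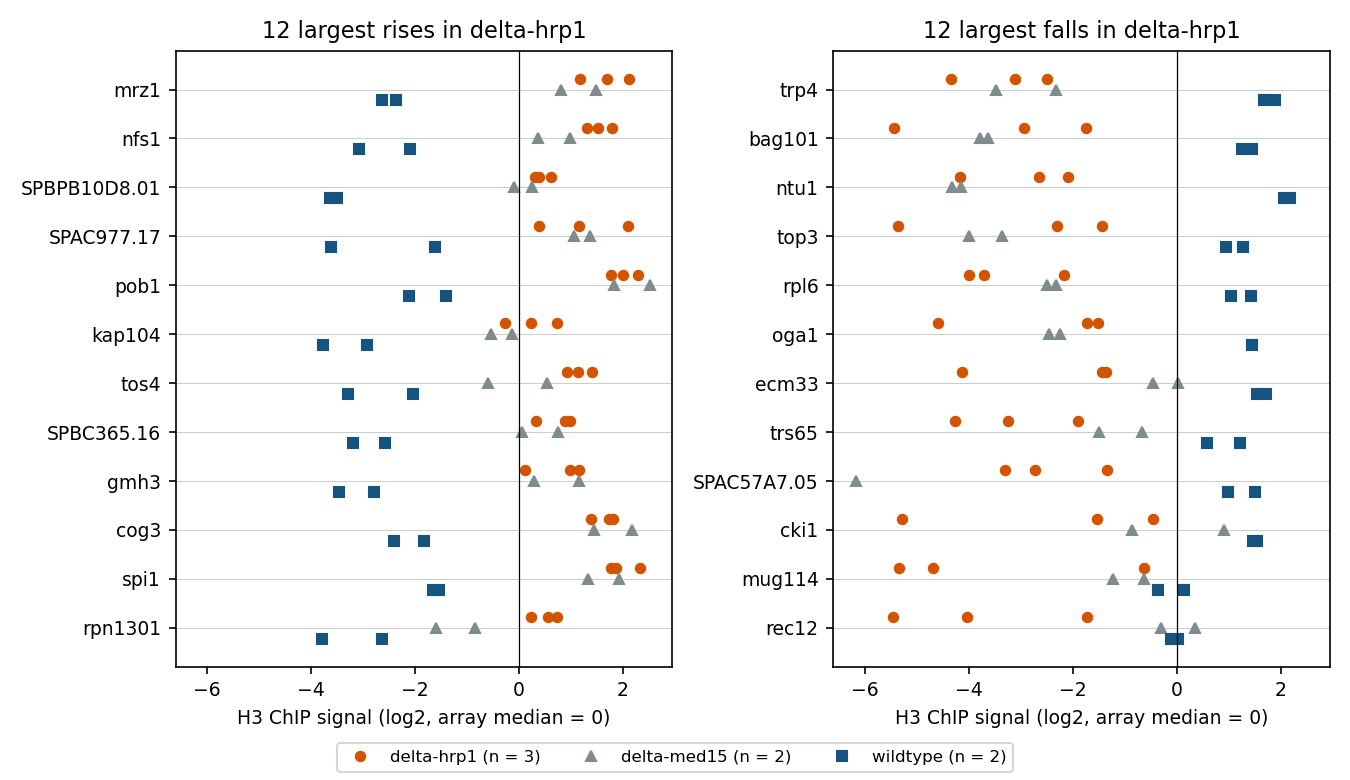
H3 signal (log2, array median at 0) in every sample for the 12 largest rises (left) and the 12 largest falls (right), with delta-hrp1 as circles, delta-med15 as triangles and wildtype as squares. For spi1 the delta-hrp1 samples sit at 1.77 to 2.34 and the wildtype samples at −1.65 and −1.53.

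Features near array background in one strain, below −4.02, give a less certain size: 34 of the falls had their delta-hrp1 mean there and 5 of the rises their wildtype mean. The arginine biosynthesis gene arg5 had 1.54, 1.88 and 1.27 in delta-hrp1, against −6.42 and −5.52 in wildtype. The ammonium transporter gene amt1 had 0.40, 0.94 and 0.87 in delta-hrp1, against −4.93 and −4.59 in wildtype. Both were among the calls that remained without either wildtype sample, and they differed by 7.25 and 6.24 after block centring. The delta-med15 samples read 1.89 and 1.49 for arg5, and −1.06 and −0.08 for amt1, so wildtype alone was near background. The others were thi2, sil1 and rpl1802 among the rises and cyb502, SPCPB1C11.02, kex1, naa40 and mug116 among the falls.

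Features called both ways were next ranked by block-centred difference, a choice made after the values were seen. The ranking was limited to features tied to 1 gene and measured in all 5 samples, with both strains above the near-background level, which leaves out arg5, amt1, hrp1, kex1 and adh1 among others. Within it the vacuolar transporter gene fnx2 came first among the rises, with 1.18, 1.33 and 0.30 in delta-hrp1 against −1.84 and −1.73 in wildtype, and 4.16 block-centred beside 2.99. The small-subunit processome gene nop14 had 2.60, 2.79 and 3.56 in delta-hrp1, against −0.38 and −0.24 in wildtype, and 3.62 block-centred beside 3.09. The septation gene sid4 stood lower in both strains, at −2.33, −2.14 and −1.05 in delta-hrp1 against −3.80 and −3.72 in wildtype. These 3 genes had no overlap between strains. The next rises were pas4, meu14, mtf1, abc3 and qcr6, with block-centred differences of 2.75 to 3.60. Under the same limits the 8 largest block-centred falls were ntu1 (−4.75), bag101 (−4.63), top3, SPAC57A7.05, rpl6, SPAC17A2.11, ecm33 and SPBC12C2.14c (−3.45).

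A run of genes on chromosome II named SPBC16G5 held several falls, noticed after the values were seen. Of its 18 tested genes, 7 were lower both ways (trp4, kex1, bag101, top3, ntu1, SPBC16G5.17 and erg24), and mrz1 and mrpl23 were higher both ways, beside 221 lower and 179 higher both ways among all 4765 tested features. All 7 falls were printed in block column 1, and mrz1 and mrpl23 in block column 3. A shift shared by the run and one of place on the array cannot be told apart. Among the 7 falls, the DNA put into the ChIP was low at all but erg24. The log2 input of trp4 was −2.76 in delta-hrp1, −2.19 in delta-med15 and −3.33 in Med15-myc, a strain that carries hrp1, and that of kex1 was −3.72, −3.77 and −3.44. The input of bag101, top3 and ntu1 lay between −4.23 and −1.53 in the same strains. That of SPBC16G5.17 was −1.38, −1.98 and −1.98, and that of erg24 was 0.16, −0.22 and 0.01. Wildtype H3 signal at trp4, kex1, bag101, top3 and ntu1 averaged 1.12 to 2.13, while their delta-med15 H3 signal was low as in delta-hrp1. Mean H3 signal of SPBC16G5.17 was 0.59 in wildtype, −2.40 in delta-med15 and −2.83 in delta-hrp1. For erg24 it was 1.41, −0.96 and −1.03.

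The comparison with input can be made across all calls. Median log2 input in delta-hrp1 was 0.28 at features called higher, −0.98 at those called lower and 0.08 at those not called. In Med15-myc it was 0.30, −1.01 and 0.03, and in delta-med15 −0.18, −0.08 and 0.05. The low input at falls was thus also measured in Med15-myc, a strain with hrp1, but not in delta-med15, which carries hrp1 too. Across features delta-hrp1 input correlated with Med15-myc input at 0.87 and with delta-med15 input at 0.71. H3 over own input in delta-hrp1 had medians of 0.25 at rises, −0.31 at falls and 0.06 at features not called. ChIP and own input, from the same arrays, correlated at 0.79 to 0.85 in delta-hrp1. Across strains and arrays, delta-hrp1 ChIP correlated with delta-med15 input at 0.50 to 0.58. Wildtype ChIP correlated with delta-med15 input at 0.45 to 0.60 and with delta-hrp1 input at 0.27 to 0.40. Whether wildtype input has the profile of delta-hrp1 input is not analysed here, and its part in the calls was not tested.

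Among the features in the lowest 5% of input in delta-hrp1, delta-med15 and Med15-myc alike, 33 were called lower (5.05% of the falls) and 2 higher (0.309% of the rises), against 67 (1.41%) of all tested. After block centring the medians of block-centred delta-hrp1 input were 0.51 at rises and −0.50 at falls, and those of Med15-myc 0.44 and −0.45. Coding length and GC content had rank correlations of 0.11 and −0.08 with the difference, across features. On chromosome II 16.1% of features were higher and 13.7% lower, on chromosome I 12.2% and 13.5%, and on chromosome III 12.1% and 14.7%.

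Gene groups were taken from 31 lists of related genes, and counts below are members higher and lower among those tested. The cytosolic ribosomal protein genes, which are among the most transcribed genes in growing yeast, had more falls than rises before and after block centring. Of 101 tested, 3 rose and 25 fell, with a median difference of −0.87 against 0.03 over all features, and after block centring 3 rose and 36 fell with a median of −0.90. The falls were 24.8% of members against 13.7% of all features, and 35.6% against 8.46% after block centring. Of these members, 17 fell both ways and 2 rose both ways. The large-subunit gene rpl31 had −4.86, −3.92 and −2.71 in delta-hrp1, against −1.38 and −1.79 in wildtype. In rpl302, one of the members that rose, the values were 0.04, −0.88 and −1.44 in delta-hrp1, against −4.17 and −3.22 in wildtype.

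The ribosomal protein genes were low in delta-med15 too. Their median signal was −1.27 in delta-hrp1, −0.92 in delta-med15 and −0.38 in wildtype, and H3 over own input had a median of −1.04 in both deletions. Against delta-med15 the median difference of delta-hrp1 was −0.16, with 0 members higher and 1 lower. Many of these genes have near-identical copies whose spotted DNA can be read by each other, so single members are uncertain. After block centring, leaving out wildtype replicate 1 or wildtype replicate 2 left 0 members called by limma (3 higher and 37 lower, or 4 higher and 45 lower, at an unadjusted p under 0.05), and 17 were lower without delta-hrp1 replicate 3.

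The core histone genes fell in 4 of 10 (40% against 13.7% of all features) and rose in 0, and 2 of the 4 remained after block centring (20% against 8.46%). The H2A gene hta1 had 0.41, −0.27 and 0.64 in delta-hrp1, against 1.91 and 1.57 in wildtype, and the H3 gene hht2 had −1.55, −1.12 and −0.26 in delta-hrp1, against −0.29 and 0.23 in wildtype. The groups did not overlap for hta1, but for hht2 the highest delta-hrp1 value lay just above the lower wildtype value. Their block-centred differences were −1.93 and −1.92. The H2B gene htb1 (−3.41) and the H4 gene hhf2 (−2.89) lie in block row 1 and were −1.39 and −0.87 after block centring, where neither passed.

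Of 23 tested members of the coactivator complexes SAGA and TFIID, 1 rose and 8 fell (median −0.82), and after block centring 0 rose and 6 fell (median −0.42). The falls were 34.8% of members against 13.7% of all features, and 26.1% against 8.46% after block centring. The TFIID genes taf3, taf8 and taf4 and the SAGA gene ada2 fell both ways. The gene taf8 had −0.49, −0.32 and −0.18 in delta-hrp1, against 2.08 and 2.13 in wildtype (−2.36 ± 0.39, −1.28 block-centred). The gene ada2 had −1.10, −1.30 and −0.03 in delta-hrp1, against 1.05 and 1.43 in wildtype. The acetyltransferase gene gcn5, the 1 member that rose, was 1.42 before and −0.65 after block centring.

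Glycolysis and fermentation genes fell in 4 of 12 (33.3% against 13.7% of all features) and rose in 0 (median −0.78). After block centring 2 fell (16.7% against 8.46%) and 1 rose (median −0.90). The alcohol dehydrogenase gene adh1 had −4.67, −6.31 and −3.12 in delta-hrp1, against 0.02 and −0.22 in wildtype. It differed by −5.09, or −4.38 block-centred. Its delta-hrp1 mean lay below the near-background level given above, so both sizes are less certain. The glyceraldehyde phosphate dehydrogenase gene gpd3 was the other member that fell both ways, by 2.67 and 1.59. For hexokinase, hxk2, the call was lost and the sign turned after block centring.

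Of 82 tested subtelomeric genes, taken as the 30 genes nearest each end of chromosomes I and II in the annotation, 18 rose and 9 fell (median 0.25), and after block centring 17 rose and 3 fell (median 0.41). The rises were 22% of members against 13.6% of all features, and 20.7% against 6.27% after block centring. The membrane protein genes ftm1 and ftm4 rose both ways: ftm4 had 1.71, 1.78 and 1.56 in delta-hrp1, against 0.31 and 0.37 in wildtype, with −0.02 and 0.26 in delta-med15. Its delta-hrp1 samples were above all other samples. The gene say1 fell both ways, with −4.11, −4.25 and −2.27 in delta-hrp1 against −0.75 and −0.62 in wildtype. The Tf2 retrotransposons, the long terminal repeat elements of the fission yeast genome, rose in 3 of 11 (27.3% against 13.6% of all features) and fell in 1 (median 0.36), and rose in 6 (54.5% against 6.27%) and fell in 0 after block centring (median 0.97). Tf2-8 had 2.05, 2.40 and 2.37 in delta-hrp1, against 0.56 and 0.80 in wildtype. Their copies are nearly identical, so these are not independent readings. Median log2 input of the Tf2 members was high, at 1.37 in delta-hrp1 and 0.97 in delta-med15. Their H3 over own input had medians of 0.25 and −0.02, and the part of input in the rises was not tested.

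**Figure D5:**
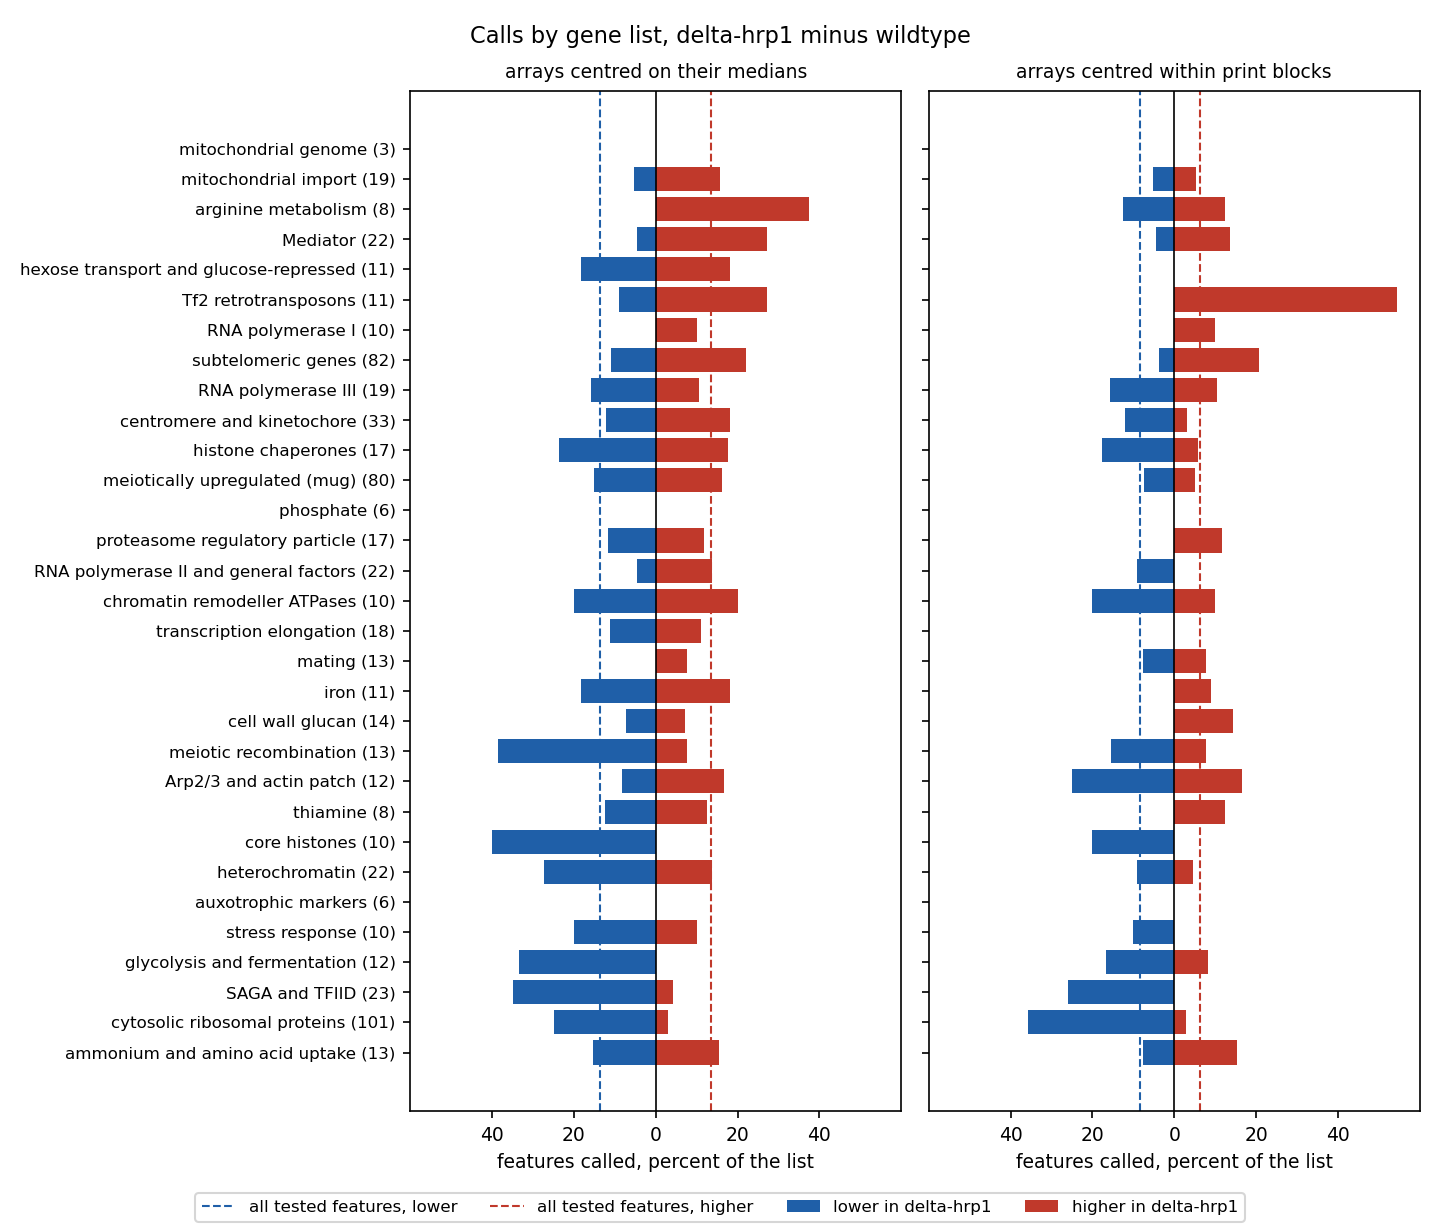
Share of the tested members of each of the 31 gene lists called higher (red, to the right) or lower (blue, to the left) in delta-hrp1 against wildtype, in percent, with the number tested in parentheses and dashed lines at the shares over all tested features (13.6% and 13.7% on the left, 6.27% and 8.46% on the right). The left panel has arrays centred on their medians and the right panel within print blocks, and the cytosolic ribosomal proteins exceed the line for lower calls in both.

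The 22 tested Mediator genes, the complex of which Med15 is a part, rose in 6 (27.3% against 13.6% of all features) and fell in 1 (median 0.48), but rose in 3 (13.6% against 6.27%) and fell in 1 after block centring (median 0.02). The kinase module gene med13 rose both ways, with 1.00, 1.34 and 1.02 in delta-hrp1 against −1.26 and −0.93 in wildtype. The gene med15 had −0.59, 0.23 and −0.27 in delta-hrp1, against −1.78 and −1.45 in wildtype (1.52 ± 0.42, adjusted p = 0.0321), and was 0.84 after block centring (adjusted p = 0.0992). The cyclin-dependent kinase gene srb10 fell by 3.04 but was −1.07 block-centred and no longer called.

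Of the 22 heterochromatin genes 3 rose and 6 fell (27.3% against 13.7% of all features), and 1 rose and 2 fell (9.09% against 8.46%) after block centring. The deacetylase gene sir2 rose both ways, with 1.16, 1.07 and 1.68 in delta-hrp1 against −1.48 and −1.09 in wildtype, and the antisilencing gene epe1 fell both ways, with −2.61, −1.61 and −1.53 in delta-hrp1 against 0.87 and 0.62 in wildtype. The genes swi6, for the HP1 protein, clr4, for the H3K9 methyltransferase, and ers1 fell before block centring and were not called after it. Of 10 chromatin remodeller ATPase genes, hrp1 fell both ways. The genes snf21 and fft1 rose and fft2 fell only before block centring, and fft3 rose (1.57) only after it. The gene snf22 was −3.52 block-centred on 1 delta-hrp1 value.

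The other lists are read against 13.6% higher and 13.7% lower over all features, and 6.27% and 8.46% after block centring. The 18 transcription elongation genes gave 2 rises and 2 falls, and after block centring limma called 0, with 2 higher and 1 lower at an unadjusted p under 0.05. The 33 centromere and kinetochore genes gave 6 and 4 (18.2% and 12.1%), then 1 and 4 (3.03% and 12.1%). The 17 histone chaperones gave 3 and 4 (17.6% and 23.5%), then 1 and 3 (5.88% and 17.6%). The 80 genes named for upregulation in meiosis gave 13 and 12 (16.2% and 15%), then 4 and 6 (5% and 7.5%), near the shares over all features. In the 13 meiotic recombination genes the counts were 1 and 5 (7.69% and 38.5%), then 1 and 2 (7.69% and 15.4%). Arginine metabolism gave 3 and 0 of 8, then 1 and 1.

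Some members of these lists were called both ways. The chaperone gene nap2, of the NAP family that binds H2A and H2B, had 1.42, −0.04 and 0.03 in delta-hrp1, against −1.94 and −1.93 in wildtype (2.51 ± 0.51, and 1.53 block-centred). The gene pcf1, for the large subunit of the replication-coupled assembly factor CAF-1, had −3.33, −0.58 and −0.31 in delta-hrp1, against 1.54 and 1.71 in wildtype (−3.18 ± 0.90, and −3.00 block-centred). The strains did not overlap for either gene, and the first delta-hrp1 sample of pcf1 was far below the other two. The kinetochore gene mis18, needed for Cnp1 loading, had −2.42, −3.48 and −1.90 in delta-hrp1, against −0.09 and −0.52 in wildtype (−2.43 ± 0.52, and −1.84 block-centred). By contrast pob3, a subunit of the elongation chaperone FACT, and dmc1, the meiotic recombinase, differed by −2.75 and −3.74 before block centring and by −0.73 and −1.76 after it, where neither was called. Both lie in block row 1.

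Genes beside the deleted locus were read for any spread of the loss. Of the 10 measured neighbours within 6 genes, 2 were called, both lower, beside 27.3% of all features called and 13.7% called lower. The deacetylase gene hst4, the next gene on one side, had −1.71, −0.54 and −1.21 in delta-hrp1 against 1.02 and 1.46 in wildtype (−2.27 ± 0.47, adjusted p = 0.0137). The gene aim18 had −1.92, −1.69 and −0.11 in delta-hrp1 against 1.47 and 1.27 in wildtype (−2.82 ± 0.57, adjusted p = 0.0128). Both lie in block row 1, and after block centring they were −0.30 and −0.38 and not called.

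The same delta-hrp1 samples set against delta-med15 gave far fewer calls: 25 of 4764 (0.525%), 13 higher and 12 lower, with 615 and 636 at an unadjusted p under 0.05. With that comparison's own delta-med15 samples, the print-block share of the difference was 47.9%. The count ranged from 1 to 886 when single samples were left out. Called in the same direction against both strains were 16 features, which share the delta-hrp1 samples: 5 higher (bit61, las1, med15, nop14 and SPAC11D3.01c) and 11 lower (bxi1, ctf1, hrp1, lsm4, mrpl17, psi1, rpl1202, SPBC21H7.08, SPCC126.11c, utp23 and vht1). For med15 the delta-med15 reading is that of its own deletion.

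The ribosome biogenesis gene las1 had 1.86, 2.61 and 2.14 in delta-hrp1, −0.51 and −0.05 in delta-med15, and −0.34 and 0.14 in wildtype. It was higher in delta-hrp1 than in every other sample, by 2.38 against wildtype and 2.45 against delta-med15. The splicing factor gene lsm4 had −4.79, −5.32 and −3.92 in delta-hrp1, −1.84 and −1.41 in delta-med15, and −0.41 and −0.70 in wildtype. The biotin transporter gene vht1 had −2.07, −2.06 and −0.82 in delta-hrp1, 1.37 and 1.90 in delta-med15, and 1.52 and 1.77 in wildtype. Among the falls, the mitochondrial ribosome gene mrpl17 and bxi1, psi1 and SPCC126.11c lie in a single print block with snf22, block row 4 and column 2, and have 1 or 2 delta-hrp1 values each. Their Med15-myc input was −2.58, −5.41, −5.54 and −5.62, so input was low there in a strain with hrp1 too, while their delta-med15 input was −0.49, 0.88, 0.18 and 0.91. Input of SPBC21H7.08 scanned at 5796.25, 2080 and 0.5 units in delta-hrp1, beside local background of 6802, 2200.75 and 0. In delta-med15 it scanned at 6091.25 and 13116.75, beside 2 and 853.5. In all, 10 falls against wildtype (1.53%, against 0.252% of tested features), hrp1 among them, had input at or under foreign DNA in all 3 delta-hrp1 arrays. Of these, 9 had input above it in both delta-med15 arrays, and 5 were at or under it in all 3 Med15-myc arrays. The genes bit61, med15, rpl1202 and utp23 were not called against wildtype after block centring.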

How the data were processed

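Per the labels, DNA of H3 ChIP and input was hybridised in different dyes to spotted ORF arrays. The deposited value table gives log2 values, and the scanner tables give the median intensity of spot and background per dye, per the file headers. Against the scanner files of the deletion strains, 99.5% to 99.7% of gene spots of the deposited log2 values lay within 0.1 of log2 of the ChIP channel less its background. The wildtype values have no scanner tables here, so their make-up is inferred. The genome build of the array design was not given in the sources used here. Each array was centred on its median, values at the floor (log2 −6.64) were treated as missing, spots of a feature were averaged and control spots left out. All 7 H3 ORF samples entered limma 3.58.1 in R 4.3.3 (lmFit, eBayes) with strain and dye; the threshold was an adjusted p of 0.05. The arrays' number limits precision. Scripts were tested on simulated data.

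The members, the gene lists and the rules were chosen with earlier results of these data known. Named features are hrp1, hrp3 and med15. To these were added the 12 largest rises and falls whose strains do not overlap and whose strain means are not near background. A further 5 near background each way and up to 4 members of each list with calls were named. The block-centred ranking, the features called in both comparisons, the SPBC16G5 genes and a few list members were chosen after values were seen. Deviations of same-numbered samples from their group means correlated at 0.036 and 0.025 between delta-hrp1 and wildtype, and at 0.33 and 0.23 between delta-hrp1 and delta-med15. With 2 shared numbers and no statement in the labels that a number marks a shared day or batch, the numbers were not taken as pairs.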

Additional observations from a re-analysis of the deposited data

How the results depend on the processing

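For delta-hrp1 minus wildtype, the 1302 calls stayed within 1.5 times under the no-dye, Cy3-only, scaled, quantile, loess, floor, all-7, low-signal filter and trend settings. Leaving out samples gave 3 to 1411 calls, and centring within print blocks 702, or after it 641 without delta-hrp1 replicate 2, 383 without delta-hrp1 replicate 3, 13 and 12 without wildtype replicate 1 or 2, 385 without either delta-med15 sample and 962 without delta-hrp1 replicate 1. The replicate block, with numbers that do not pair the samples, gave 1642. For delta-hrp1 minus delta-med15, the 25 calls became 336 without the dye term, 796 without it and without delta-hrp1 replicate 1, 1 with Cy3 samples alone, 4 with the strains compared alone, 119 with the replicate block, 578 scaled, 861 by quantile, 390 by loess, 5 with features measured in all 7 samples, 409 without the dimmest features, 321 with trend and robust moderation, 55 with print-block centring and 1 to 886 with samples left out. The cause was not tested. With print-block centring these named genes changed sign: med11 (−0.13), rpb7 (−0.060), rpt1 (0.021), rpn8 (−0.23), hxk2 (0.14), fbp1 (0.29), fio1 (0.35), pcr1 (0.032) and rpc37 (0.28), as did the list members gcn5 (−0.65) and clr4 (0.12). Of the named calls against wildtype, 88 held and 48 lost their call under it, while 115 lost it without wildtype replicate 1 and 136 without wildtype replicate 2.

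Limits: wildtype has 2 samples without input, all in Cy3, so the dye term rests on the deletion strains. Signal over background limits the features near the floor.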
